A study of Mus musculus with 6 samples.

Results

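Cytosolic ribosomal proteins and the translation factors that work with them are described here by the TERT signal at and around their genes in mouse primary neurons. TERT, the catalytic protein subunit of telomerase, had been located along the genome with CUT&Tag, a method that uses an antibody to bring a transposase to a protein and tag the DNA next to it. Members were chosen by gene symbol: every region whose annotated gene was named Rpl or Rps with a number and at most 1 further letter, Rplp with a number, Rpsa, or any Eif or Eef symbol with a number. They came to 258 of the 41527 regions in the 3 deposited lists (80 of the 6812 in the common list, 78 of the 16153 in the BIBR1532 list and 100 of the 18562 in the vehicle list). These regions named 111 of the 15356 genes named in all, of which 110 are protein-coding and 1, Rps4l, is a pseudogene. RefSeq holds 152 protein-coding genes with such symbols, and 42 of them were named by no list, a share that was not counted over all genes. One of those 42, Eif4a3l1, stands in both condition-specific lists under an older symbol, and it enters the counts of genes with any region but not the 258 regions.

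The samples were cortical and hippocampal neurons from C57BL/6 embryos (E15-18), profiled with an anti-TERT antibody. Of 6 samples, 3 received vehicle (DMSO, 0 µM) and 3 were exposed for 24 h to 2 µM of the telomerase inhibitor BIBR1532, a synthetic small molecule; 1 label field calls the vehicle samples untreated. The 3 libraries of each condition were combined by the authors, so each condition is 1 measurement and no region has replicate values. A common region had signal in both pools, and a BIBR1532 or vehicle region had the higher signal in that pool. Which list belongs to which condition was read from the order in their names, and is therefore likely but not stated outright. No library with a control antibody and no expression data were used here, and the depth of the libraries is unknown from the lists.

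The ribosome is built from a small subunit, which reads the mRNA, and a large subunit, which joins amino acids, each made of ribosomal RNA and many small proteins. Initiation factors bring the initiator tRNA and the small subunit to the mRNA, and elongation factors then drive the ribosome along it. Genes for ribosomal proteins are among the most actively transcribed in most cells, neurons included, and many of their transcripts begin with a pyrimidine tract, the TOP tract, through which growth signals control their translation.

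Promoter sequences of 6 members show where the regions lay. Each line gives the 250 bases before the annotated start site, 5′ to 3′ on the gene's own strand, from RefSeq (GRCm38.p6, the mm10 build of the lists), with the bases inside a region in capitals. Rpl35 (large subunit; chr2:39005132-39005381, minus strand), Rplp2 (stalk; chr7:141447401-141447650, plus strand), Rps13 (small subunit; chr7:116334191-116334440, minus strand) and Eif3d (chr15:77970825-77971074, minus strand) are shown with their common region. Rpl31 (large subunit; chr1:39367601-39367850, plus strand) is shown with its BIBR1532 region and Eif3a (chr19:60790694-60790943, minus strand) with its vehicle region.
Rpl35: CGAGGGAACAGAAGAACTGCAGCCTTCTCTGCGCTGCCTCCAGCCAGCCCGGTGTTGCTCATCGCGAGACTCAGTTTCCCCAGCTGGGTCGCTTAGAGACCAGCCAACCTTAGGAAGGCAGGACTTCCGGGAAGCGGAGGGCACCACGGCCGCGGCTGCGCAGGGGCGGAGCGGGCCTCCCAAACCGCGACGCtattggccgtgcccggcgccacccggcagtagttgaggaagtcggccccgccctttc
Rplp2: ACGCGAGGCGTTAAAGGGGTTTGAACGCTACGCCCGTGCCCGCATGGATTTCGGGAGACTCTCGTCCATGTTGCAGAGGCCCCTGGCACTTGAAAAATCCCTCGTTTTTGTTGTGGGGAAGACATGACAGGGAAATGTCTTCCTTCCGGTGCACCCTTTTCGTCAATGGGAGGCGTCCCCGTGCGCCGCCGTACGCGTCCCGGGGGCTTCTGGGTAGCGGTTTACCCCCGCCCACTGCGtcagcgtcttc
Rps13: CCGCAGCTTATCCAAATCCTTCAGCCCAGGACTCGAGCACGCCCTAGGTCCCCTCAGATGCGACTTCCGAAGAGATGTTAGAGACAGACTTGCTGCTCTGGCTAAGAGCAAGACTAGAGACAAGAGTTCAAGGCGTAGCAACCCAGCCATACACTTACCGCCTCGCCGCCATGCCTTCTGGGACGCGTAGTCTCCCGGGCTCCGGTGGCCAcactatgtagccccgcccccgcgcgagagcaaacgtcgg
Eif3d: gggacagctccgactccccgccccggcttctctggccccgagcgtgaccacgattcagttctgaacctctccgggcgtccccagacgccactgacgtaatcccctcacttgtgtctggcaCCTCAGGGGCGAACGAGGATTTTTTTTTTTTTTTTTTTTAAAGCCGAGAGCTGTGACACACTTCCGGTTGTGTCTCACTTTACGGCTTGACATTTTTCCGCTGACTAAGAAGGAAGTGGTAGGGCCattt
Rpl31: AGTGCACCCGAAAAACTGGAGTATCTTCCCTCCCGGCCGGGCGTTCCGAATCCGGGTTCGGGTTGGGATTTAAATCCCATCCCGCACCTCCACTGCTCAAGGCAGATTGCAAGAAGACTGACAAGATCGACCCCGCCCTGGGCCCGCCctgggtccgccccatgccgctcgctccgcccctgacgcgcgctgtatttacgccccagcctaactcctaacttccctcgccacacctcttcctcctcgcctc
Eif3a: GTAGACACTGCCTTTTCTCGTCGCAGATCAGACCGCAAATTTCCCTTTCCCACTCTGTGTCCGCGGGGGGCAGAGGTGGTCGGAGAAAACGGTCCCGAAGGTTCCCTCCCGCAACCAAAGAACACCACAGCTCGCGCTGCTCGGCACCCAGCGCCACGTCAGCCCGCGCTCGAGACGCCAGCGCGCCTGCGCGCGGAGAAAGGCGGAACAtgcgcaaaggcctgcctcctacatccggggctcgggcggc
In Rpl35, 193 of the 250 bases lay in the common region, which stopped before the start site. In Eif3d the 120 bases in lower case that come first all lay in a BIBR1532 region that began where the common region stopped. In Rps13 a vehicle region began 5 bases after the common one and held the last 34 bases before the start site.

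Translation genes carried shared TERT signal at their promoters more often than genes at large. Of the 152 genes, 39 (25.7%, exact 95% interval 18.9 to 33.4%) had a common region of the promoter class, against 14.2% of all 21887 protein-coding genes. A BIBR1532 promoter region was named for 17 (11.2%, interval 6.65 to 17.3%) against 6.89%, and a vehicle promoter region for 25 (16.4%, interval 10.9 to 23.3%) against 7.37%. In all, 37 members (24.3%) had a promoter region in either condition-specific list, against 13.9% of all genes. With 1 pool a condition these shares are descriptions with no test, and the intervals cover counting error only.

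With regions of any class the members were nearer to other genes, except in the common list. Any common region was named for 61 members (40.1%) against 23.9% of all genes, any BIBR1532 region for 57 (37.5%) against 34.5%, and any vehicle region for 68 (44.7%) against 37.5%. A reading that takes no gene name from the lists was also above the background in each list: of 116 members with a RefSeq window from 250 bases before to 50 after the start, 33 (28.4%) overlapped a common region against 17.6% of 17492 windows. For BIBR1532 regions 11 windows (9.48%) did so against 5.44%, and for vehicle regions 13 (11.2%) against 6.36%.

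**Figure D1:**
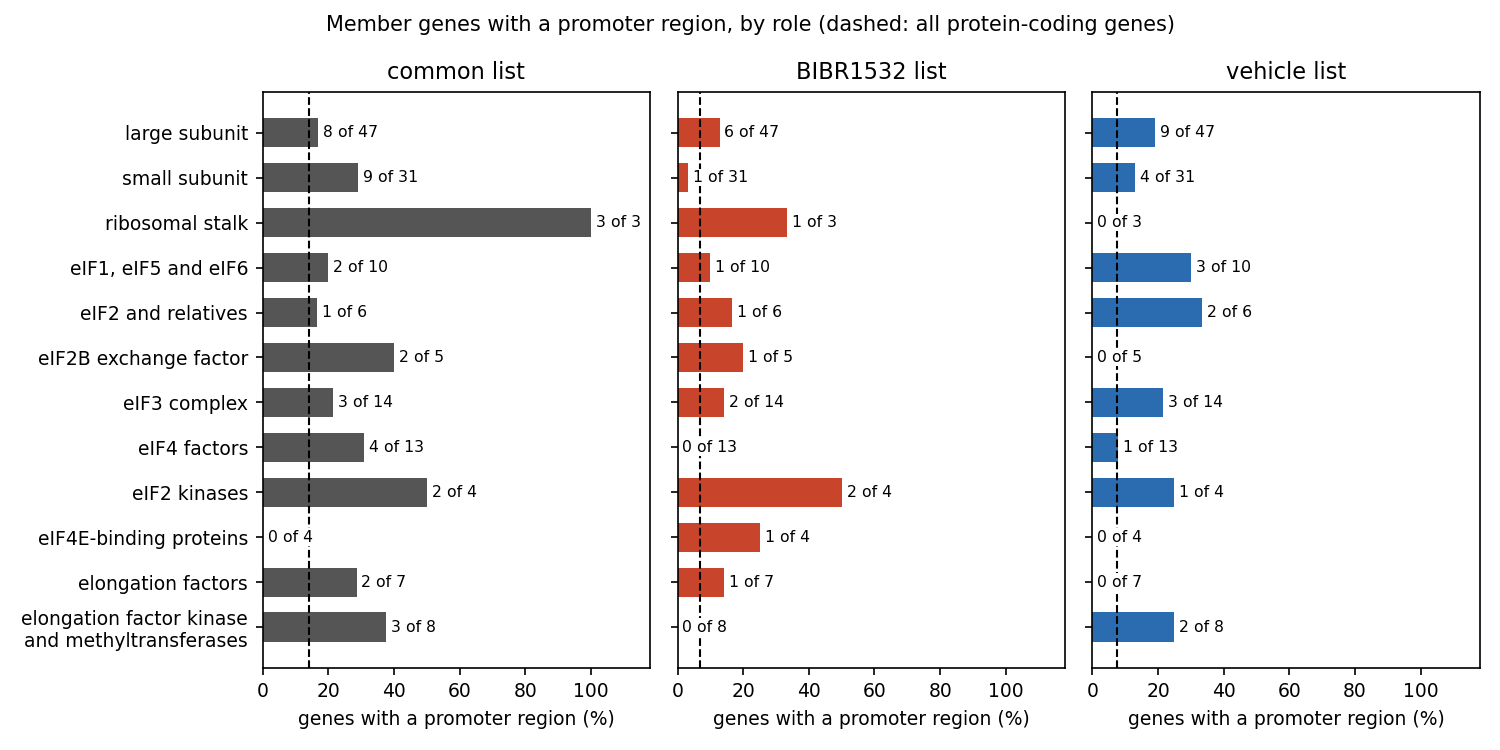
Share of member genes with a promoter region, by role (bars, with the number of genes beside each), in the common, BIBR1532 and vehicle lists; the horizontal axis is percent of the genes of a role, and the dashed line is the share among all 21887 protein-coding genes (14.2%, 6.89% and 7.37%). All 3 stalk genes have a common promoter region, while large subunit genes, with 8 of 47, lie near the dashed line.

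The share differed between roles. All 3 stalk genes, 9 of 31 small subunit genes (29.0%) and 8 of 47 large subunit genes (17.0%) had a common promoter region, which makes 20 of 81 ribosomal protein genes (24.7%). Initiation factors reached 12 of 48 (25.0%), with the eIF4 factors at 4 of 13, the eIF2B exchange factor at 2 of 5 and the eIF3 complex at 3 of 14. The large subunit share was thus near the 14.2% of all genes, and the counts in the smaller roles are too few for their order to be read.

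Small subunit genes with a common promoter region included Rps12, Rps13, Rps14, Rps16, Rps19, Rps21 and Rps29. Rps19, a gene mutated in Diamond-Blackfan anemia, had a common region of 514 bp centred 291 bp before the start site (chr7:24884045-24884558, score 0.165), and a vehicle region of 139 bp touched its far end (score 1.63). Rps16 had a common region on each side of the start, at -177 and +102 bp, with near equal scores of 0.115 and 0.114. The start site of Rps16 thus lay in a gap between 2 separate regions. Rps21 had 2 on the upstream side, at -596 and -264 bp. Rps29 had a common promoter region at -356 bp, a common intron 1 region at +234 bp, and a BIBR1532 region of score 1.33 at +423 bp. Rps14, the gene tied to the anemia of the human 5q- syndrome, had a single common promoter region of 247 bp at -119 bp and no promoter region in the other lists. A BIBR1532 region of score 7.69 was also named for it, 11694 bp after the start.

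Condition-specific promoter regions were few in the small subunit. The vehicle list named 4 of its 31 genes (12.9%) and the BIBR1532 list 1 (3.23%), against 7.37% and 6.89% of all protein-coding genes. These counts are too few for a direction to be read. The vehicle genes included Rps13, Rps19 and Rps20, with scores of 1.70, 1.63 and 5.19. The BIBR1532 list named only Rps27l, a p53-responsive relative of Rps27, with a 317 bp region (chr9:66945721-66946037) of score 8.77 centred 207 bp before the start. The vehicle regions of Rps13 and Rps19 lay beside a common region of the same gene, and the regions of Rps20 and Rps27l did not. The most frequent score differed between these lists, 6.34 for BIBR1532 and 5.19 for vehicle, and the scaling of the pools is unknown, so scores were compared only within a list.

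Large subunit genes with a common promoter region were Rpl3, Rpl7, Rpl10, Rpl13a, Rpl27a, Rpl29, Rpl30 and Rpl35. Rpl30 had the highest score of any member promoter in the common list, 0.616, for a region of 271 bp at -180 bp (chr15:34443321-34443591). In the bdgdiff step of MACS2, from which the lists seem to come, a higher score in a common list means a larger difference between the pools; this is knowledge of the program, and no source used here states it. Rpl7 had the widest of these regions, 497 bp at -272 bp (score 0.068), and Rpl29 had one of 359 bp at -240 bp (score 0.114). In Rpl3 and Rpl27a the common region lay inside the gene, at +135 and +262 bp, and was classed by Snord43 and Snora3, small nucleolar RNAs that lie in these genes.

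Most condition-specific promoters of ribosomal proteins belonged to the large subunit, which holds 47 of the 81 genes. It had 6 genes in the BIBR1532 list (12.8%) and 9 in the vehicle list (19.1%), against 6.89% and 7.37% of all genes. The BIBR1532 genes were Rpl18, Rpl21, Rpl23, Rpl27a, Rpl31 and Rpl35, and their scores ran from 1.44 at Rpl18 to 3.39 at Rpl31. The vehicle genes included Rpl7a, Rpl10, Rpl12, Rpl19, Rpl23, Rpl27a, Rpl34 and Rpl38. Among them Rpl34 scored 7.35 for 136 bp at -322 bp, Rpl23 5.59 for 273 bp at -667 bp, and Rpl12 and Rpl38 1.31 each. Rpl23, whose protein also binds Mdm2, and Rpl27a were in both lists, so neither gene as a whole went one way. Rpl10, a late-joining protein near the tRNA sites, had a vehicle region (score 2.01) that touched its common region at -478 bp (score 0.463), and a BIBR1532 region in intron 1 at +126 bp (score 1.29). At Rpl23 the BIBR1532 region lay after the start, at +125 bp, and the vehicle region before it. At Rpl27a the order along the gene was a BIBR1532 region at -620 bp, a vehicle region across the start at -14 bp, and the common region at +262 bp, which the vehicle region touched.

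The stalk, through which the large subunit recruits the elongation factor GTPases, had a common promoter region at each of its genes. Rplp2 had a region of 345 bp at -184 bp (score 0.245), Rplp1 one of 213 bp at +65 bp (score 0.302) and Rplp0 one of 131 bp at +70 bp (score 0.092). Rplp0 and Rplp1 each had a second common region in an exon, exon 5 of 7 and exon 3 of 3. Rplp1 also had a BIBR1532 promoter region of score 7.63, 18 bp away from its common region, and 4 vehicle regions that all lay 52429 bp or more from the start site. With 3 genes this is a description of the stalk and sets it apart from no other role.

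**Figure D2:**
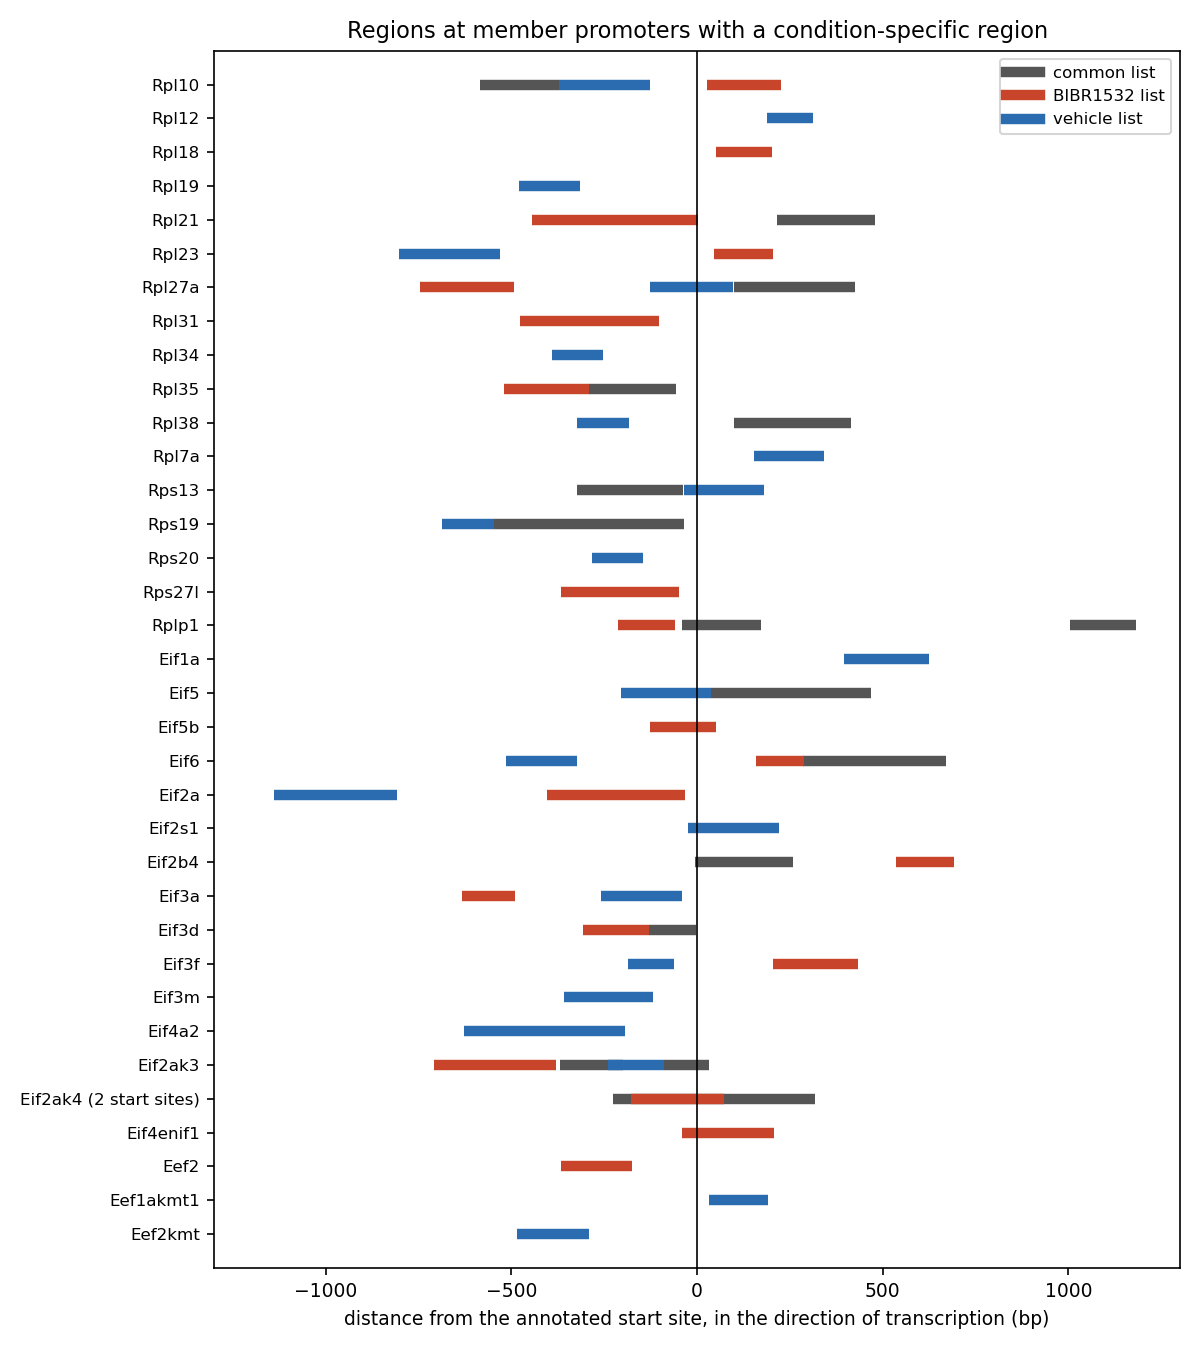
Position of the regions of 35 members that have a BIBR1532 or vehicle promoter region, in bp from the annotated start site (vertical line), with positive values in the direction of transcription; bars are drawn to scale and coloured by list. At some members regions of different lists lie side by side, as at Rpl35, Rps19 and Eif3d. The 2 regions at Eif2ak4 were annotated to different start sites and only appear to overlap, since on the chromosome they touch.

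Among the factors for start codon selection and subunit joining, Eif1 and Eif5a had a common promoter region. Eif5a, whose hypusine-bearing protein helps stalled ribosomes, had one of 674 bp at -282 bp (score 0.199). Eif1, which guards start codon choice, had one of 533 bp at -32 bp (score 0.226), then a BIBR1532 region of 141 bp (score 1.21) and a second common region of 125 bp, all touching end to end, and a vehicle region (score 2.47) 12 bp further on. The 4 regions at Eif1 thus ran through all 3 lists within a single stretch of chromosome 11. Eif6, which keeps free large subunits from joining too early, likewise had a common region at +479 bp touched by a BIBR1532 region at +223 bp (score 6.57), and a vehicle promoter region at -420 bp (score 2.19). Eif5, the GTPase activator of eIF2, had a vehicle region across its start (score 2.13) that touched a common region at +253 bp. Eif5b had a BIBR1532 region at -38 bp (score 2.19), in the class of the neighbouring gene Txndc9. Eif1a had a vehicle region of score 8.86 at +510 bp, classed by the neighbouring gene Tmed7.

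eIF2 delivers the initiator tRNA, eIF2B reloads it with GTP, and 4 kinases shut the cycle down under stress by phosphorylating eIF2. Of the eIF2 genes, Eif2s3x (gamma subunit) had a common promoter region, 237 bp at -401 bp (score 0.019), and Eif2s1 (alpha) a vehicle region across its start (score 1.61) in the class of Atp6v1d. Eif2a, a separate factor that can also bring initiator tRNA, had both a vehicle region at -973 bp (score 9.20, the highest of any member promoter in that list) and a BIBR1532 region at -219 bp (score 2.91). Eif2b5, the catalytic subunit of eIF2B, had a common region of 222 bp at -152 bp (score 0.13). Eif2b4 had a common region at +126 bp (score 0.10) and a BIBR1532 region at +615 bp (score 1.5), both in the class of Snx17.

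Among the eIF2 kinases, Eif2ak3 and Eif2ak4 had common promoter regions. Eif2ak3 (PERK, the kinase of the endoplasmic reticulum) had 2 of them, at -284 bp (score 0.28) and -29 bp (score 0.126). A BIBR1532 region of 330 bp lay 11 bp upstream (chr6:70843806-70844135, score 8.39), and a vehicle region of 152 bp overlapped the first common region by 41 bp and touched the second (score 1.31). Its promoter therefore held regions of all 3 lists within less than 1 kb. Eif2ak4 (GCN2, the sensor of uncharged tRNA) had a common region of 544 bp (score 0.101) touched by a BIBR1532 region of 250 bp (score 1.72). Eif2ak1 (HRI, the heme-regulated kinase) had the highest score of all common member regions, 0.863. The authors' annotation calls this region intergenic and places it 54337 bp before the start site it used, whereas the region covers 106 of the 250 bases before the RefSeq start, so it was not counted as a promoter region here. Eif2ak2 (PKR) was named by no list.

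In the eIF3 complex, the scaffold that holds the small subunit and the other factors together, Eif3b, Eif3d and Eif3j1 had common promoter regions. Eif3b had one of 521 bp at -307 bp (score 0.135), Eif3j1 one of 229 bp at -334 bp (score 0.015), and Eif3d, the subunit that can bind a cap itself, one of 126 bp at -67 bp (score 0.264). The BIBR1532 list named the promoters of Eif3d (score 1.79) and Eif3a (1.72), and the vehicle list those of Eif3a (1.65), Eif3f (1.34) and Eif3m (1.99). All 5 of these scores were below 3. Eif3f also had a BIBR1532 region of score 6.76 in exon 1 of 8, at +319 bp.

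The eIF4 factors bind the cap and unwind the leader of the mRNA. Eif4a1, the helicase, had the widest common promoter region of any member, 848 bp at -6 bp (chr11:69672006-69672853, score 0.36), and another common region of 298 bp at +677 bp. Its close paralog Eif4a2 had no common region and a vehicle promoter region of 433 bp at -412 bp (score 7.97). Common promoter regions were also named for Eif4e2 (score 0.056), Eif4g2 (0.037) and Eif4g3 (0.166), and Eif4b, Eif4g1 and Eif4h had a common region centred within 1 kb of the start but of another class. No eIF4 gene of the 13 had a BIBR1532 promoter region. With 6.89% of all protein-coding genes having one, 13 genes are too few for that absence to be read. Of the proteins that bind and restrain eIF4E, Eif4ebp1 had common regions in exon 1 of 3 and in its 3' UTR (scores 0.182 and 0.291), and a vehicle region (score 1.61) overlapped the latter by 5 bp. Eif4enif1 had a BIBR1532 promoter region at +84 bp (score 2.12).

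Elongation factors were named mainly by the common list. Eef1g and Eef1d, parts of the exchange complex that recharges eEF1A, had common promoter regions. Eef1g had 3 common regions, at -287, -58 and +241 bp, with scores of 0.486, 0.128 and 0.187. Eef1a1, which brings aminoacyl-tRNA to the ribosome, had the widest common region of any member, 981 bp in exon 7 of 8, 2693 bp after the start (chr9:78478541-78479521, score 0.305), and no promoter region. Eef1a2, the form that replaces it in mature neurons, was named by no list. Eef2, the translocase, had a BIBR1532 promoter region of 192 bp at -271 bp (score 1.37), and Eef2k, the kinase that inhibits it, had common regions at -367 bp (493 bp wide, score 0.137) and +45 bp (score 0.061). Eef2kmt, which methylates Eef2, had a vehicle region of score 8.59 at -389 bp, and Eef1akmt1 one of score 1.46 in the class of 1700039M10Rik. The regions of Eef1akmt4 and of the read-through gene Eef1akmt4-ece2 lie at the start of Alg3, and both genes have the same RefSeq promoter window. They are 1 locus but enter the counts here as 2 genes.

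Shared and condition-specific signal met at some member promoters, at shares near or slightly above those over all genes. Of the 37 members with a condition-specific promoter region, 11 (29.7%) also had a common one, against 27.0% of the 3053 such genes in all, so this share was near the background. Of the 42 condition-specific promoter regions of members, 18 (42.9%) lay within 1 kb of a common region against 38.3% of all condition-specific promoter regions, and 9 (21.4%) touched or overlapped one against 15.7%. Over all classes the members differed more from the background: 33 of 178 (18.5%, exact 95% interval 13.1 to 25.0%) lay within 1 kb of a common region, against 7.96% of all 34715. The 2 sets differ in class, since promoter regions made up 23.6% of the 178 and 10.2% of all. Outside the promoter class the shares within 1 kb were 11.0% and 4.53%. Of the 33 member regions within 1 kb, the 14 in the BIBR1532 list had a median score of 2.02 against 6.34 for the members' regions farther away. The 19 in the vehicle list had 1.7 against 5.19. The same contrast held over all genes, with medians of 2.41 against 6.34 in the BIBR1532 list and 2.45 against 5.19 in the vehicle list.

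Member promoters in the condition-specific lists had low scores. In the BIBR1532 list their median was 2.12 against 3.42 for all its promoter regions, and 13 of 17 (76.5%) scored under 3 against 46.4%. In the vehicle list it was 1.99 against 4.36, and 16 of 25 (64.0%) scored under 3 against 42.3%. With a score of at least 3, a BIBR1532 promoter region was named for 4 members (2.63%, exact 95% interval 0.722 to 6.6%), below the 3.78% of all protein-coding genes, and a vehicle one for 9 (5.92%, interval 2.74 to 10.9%), against 4.3%. With a score under 3 the shares were 8.55% of members against 3.28% of all genes for BIBR1532, and 10.5% against 3.23% for vehicle. The higher share of members than of all genes in these lists thus lay in the low scores for BIBR1532 and mostly there for vehicle. At a score of at least 3 the genes were Rpl31, Rplp1, Rps27l and Eif2ak3 in the BIBR1532 list. In the vehicle list they included Rpl7a, Rpl23, Rpl34, Rps20, Eif1a, Eif2a, Eif4a2 and Eef2kmt. Regions that share the most frequent score of their list, 6.34 for BIBR1532 and 5.19 for vehicle, made up 12.3% of all condition-specific promoter regions and 2.38% of the members', a single region at Rps20.

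**Figure D3:**
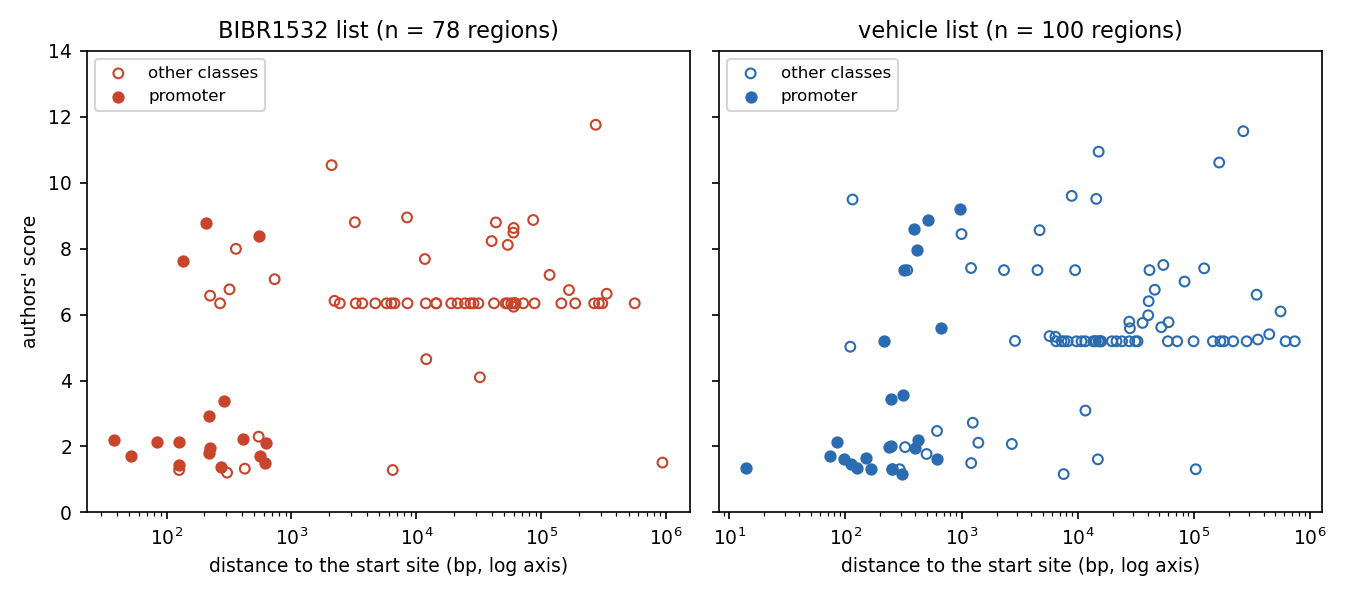
Authors' score of each member region (vertical axis) against the distance from its centre to the start site of the gene it was named for (horizontal log axis, bp), for the BIBR1532 list (78 regions) and the vehicle list (100 regions); filled points are of the promoter class. Most promoter regions score under 3, and the rows of points at 6.34 and 5.19 are the most frequent score of each list, reached almost only away from the start sites.

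Counted over regions, neither condition-specific list held a clear excess of members. Of 178, 78 (43.8%, exact 95% interval 36.4 to 51.4%) were in the BIBR1532 list, against 46.5% of all 34715 condition-specific regions, which lies inside that interval. Ribosomal proteins had 41.9% of 93 regions there and initiation factors 45.0% of 60. Of the members' 42 regions of the promoter class, 17 (40.5%, exact 95% interval 25.6 to 56.7%) were in the BIBR1532 list. Over all genes 1711 of 3525 such regions were. Promoters in a single condition-specific list without a common one were named for 7 members in the BIBR1532 list (4.61%, exact 95% interval 1.87 to 9.26%), against 4.89% of all genes. In the vehicle list they were named for 16 (10.5%, interval 6.14 to 16.5%), against 5.08%, which lies below that interval. Both counts go only by the gene and the promoter class that the lists give. Rpl21 (BIBR1532) and Eif5, Eif6 and Rpl38 (vehicle) also had a common region of another class within 1 kb. At Eif5b (BIBR1532) a common region named for Txndc9 covered 124 of the 250 bases before the start, and at Eif2s1 (vehicle) a BIBR1532 region named for Atp6v1d overlapped the promoter window. Both lists named a promoter region for 5 members (3.29%, exact 95% interval 1.08 to 7.51%), against 0.315% of all genes (69 of 21887): Rpl23, Rpl27a, Eif2a, Eif3a and Eif2ak3. These counts compare 2 pools and have no replicate check, and no difference between the 2 lists was tested.

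Member regions lay nearer to start sites than those of other genes. The promoter class held 44 of 80 common member regions (55.0%) against 51.9% of all common regions, 17 of 78 BIBR1532 regions (21.8%) against 10.6%, and 25 of 100 vehicle regions (25.0%) against 9.77%. The difference was therefore in the condition-specific lists, while common regions are mostly at promoters for any gene. Centres more than 10 kb from the start made up 48.9% of the members' condition-specific regions against 66.7% of all. Introns held 29.5% of BIBR1532 and 25.0% of vehicle member regions, against 44.3% and 43.7% of all regions. Intergenic shares were near equal, at 37.2% and 36.0% against 37.9% and 39.1%. Genes were not matched for length, and many ribosomal protein genes are short.

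Common regions of members flanked the start site. The share of the 152 genes covered by a common region was 15.1% at 250 bp before the start, 10.5% at the start itself and 15.1% at 150 bp after it. Over all protein-coding genes the share was 8.68% at the start, with its maximum of 9.89% at 100 bp after it. Among common promoter regions, 77.3% of those of members were centred upstream of the start against 66.9% of all, with median positions of -180 and -120 bp. Of 52 members with a common region centred within 1 kb, 7 (13.5%) had one on both sides against 6.68% of 4209 genes, among them Rps16, Rps29, Eif1, Eif4a1, Eef1g and Eef2k.

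**Figure D4:**
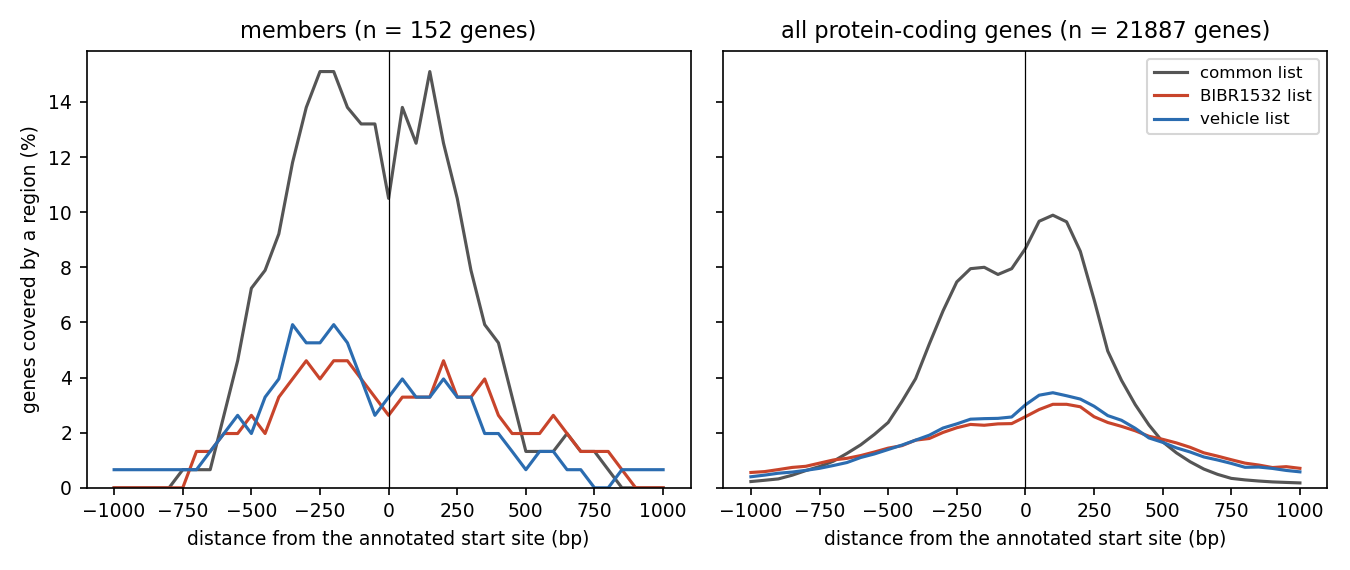
Share of genes (vertical axis, %) covered by a region of each list at positions from 1000 bp before to 1000 bp after the annotated start site (horizontal axis, 50 bp steps), for the 152 members and for all 21887 protein-coding genes. The line of the common list dips to 10.5% at the start site of members between peaks of 15.1% on both sides, which 16 to 23 genes make up.

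The 42 protein-coding members named by no list included 18 large subunit and 9 small subunit genes, such as Rpl4, Rps6 and Rpsa, and 11 initiation factors, such as Eif3c and Eif4a3. Without the share over all genes, these counts cannot be read as high or low. The pseudogene Rps4l had common regions at +310 and +670 bp (scores 0.354 and 0.256), with a vehicle region (score 1.77) that overlapped the first by 36 bp and touched the second.

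A few members had regions far from their own start site. Rps29 had the most condition-specific regions, 3 BIBR1532 and 6 vehicle, of which the farthest lay 933380 bp from its start, so that being the nearest gene was the sole link. Rps15a and Rps24 followed with 7 each and Eef2kmt with 6, again mostly in intergenic sequence. Most of the highest member scores of the condition-specific lists lay outside promoters: in the BIBR1532 list 11.8 at Rps15a (744 bp, chr7:117843079-117843822, 272697 bp from the start) and 10.5 near Rpl23, and in the vehicle list 11.6 and 10.6 near Rps24 and 10.9 in exon 6 of 9 of Eif2s2. Next in the vehicle list were Eif4g2 (9.60, exon 20 of 22) and Rps15a (9.51). The 5 highest in the BIBR1532 list ended with Rpl19 (8.95), Rpl39l (8.87) and Rps4x (8.80). The common list differed in this, since its 2 highest member scores, at Eif2ak1 and Rpl30, belonged to regions just before a start site, the RefSeq one at Eif2ak1 and the annotated one at Rpl30. Next there were Rps15a (0.532), in the 3' UTR of the neighbouring gene Arl6ip1, Eef1g (0.486) and Eef2k (0.473). Regions in all 3 lists were named for 17 of the 152 protein-coding members: Rpl10, Rpl19, Rpl27a, Rpl38, Rplp1, Rps15a, Rps24, Rps27l, Rps29, Eif1, Eif5, Eif6, Eif2ak3, Eif4b, Eif4e3, Eif4g3 and Eif4h. The matching share over all genes was not counted, so this number cannot be read as high or low.

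Divergent neighbours blur the naming of some promoters. Transcripts of a neighbour gave the promoter class at several members, among them Rpl12 (Lrsam1), Rpl18 (Sphk2) and Rpl7a (Med22). Conversely, regions named for a neighbour overlapped the RefSeq promoter window of 7 members. They were common regions at Rpl15 (named for Nkiras1), Rps25 (Trappc4), Rps27 (Rab13), Eif3k (Map4k1) and Eif5b (Txndc9), and BIBR1532 regions at Rpl4 (Zwilch) and Eif2s1 (Atp6v1d). The region at Rpl15 had the highest score of the whole common list, 0.913. Of the 35 members with a window that were named by no list, 4 overlapped a common region in this way. Another start on the opposite strand lay within 1 kb upstream of 19% of member windows, against 12.2% of all.

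Many members have processed pseudogenes, to which reads of the parent gene's exons can also align. RefSeq names such copies for 66 of the 152, with 24 for Rpl31, 23 for Rps12, 15 for Rpl21 and 14 for Rpl7a. How reads with several matching places were handled was not given in the sources used here. Regions in the exons of members, such as those of Eef1a1, Rplp0, Rps7 and Rps24, are uncertain for this reason, while upstream sequence is not part of a processed copy.

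Several short motifs were more frequent in member promoters than in all promoters. Motifs were searched in the 300-base windows on both strands, TATA on the gene's strand only. The ETS core CCGGAAG was in 33.6% of 116 member windows (39.3% of 61 ribosomal protein windows) against 11.9% of 17492. The Sp1 box GGGCGG was in 64.7% against 46.3%, the E-box CACGTG in 15.5% against 7.90%, and the NRF1 motif (GCGC, any 2 bases, GCGC) in 11.2% against 8.80%. In ribosomal protein windows alone these were at 57.4%, 8.2% and 9.84%. The higher E-box share of members thus lay in the 55 other members (23.6%), where Eef1akmt4 and Eef1akmt4-ece2 count the same window. The TATA box TATAAA was at 8.62% against 9% and the YY1 motif GATGGCGGC at 1.72% against 1.5%; none of these strings contains another. A match is a string of letters and not a binding site.

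These motifs followed the common regions only in part. The Sp1 box was in 22 of 27 member windows (81.5%) with a common promoter region and in 53 of 89 (59.6%) without one. The ETS core went the other way, with 25.9% and 36.0%. CpG content, as observed over expected dinucleotides, had near equal medians in both groups (0.849 and 0.854) and was above that of all promoters (0.576), as was GC content at 59.2% against 56.3%. These shares were not tested.

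Pyrimidine runs near the start site are shown in capitals for 8 members. Each line gives the 15 bases before and 15 bases from the start site, 5′ to 3′ on the gene's strand. Every run shown begins before the annotated start, whereas a TOP tract opens the transcript, so a run is not by itself a TOP tract. Rpl35 (chr2:39005117-39005146, minus strand), Rpl27a (chr7:109519180-109519209, plus strand), Rplp2 (chr7:141447636-141447665, plus strand) and Eif2b5 (chr16:20498802-20498831, plus strand) have a common promoter region. Rpl7a (chr2:26910792-26910821, plus strand), Rps6 (chr4:86857353-86857382, minus strand), Eif3f (chr7:108934400-108934429, plus strand) and Eef1a1 (chr9:78481710-78481739, minus strand) have none.
Rpl35: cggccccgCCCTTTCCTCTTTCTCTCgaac
Rpl27a: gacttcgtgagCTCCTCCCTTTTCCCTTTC
Rplp2: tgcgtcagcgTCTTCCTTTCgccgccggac
Eif2b5: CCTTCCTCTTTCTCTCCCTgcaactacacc
Rpl7a: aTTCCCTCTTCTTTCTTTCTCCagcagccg
Rps6: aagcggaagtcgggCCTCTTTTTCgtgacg
Eif3f: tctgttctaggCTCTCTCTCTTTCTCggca
Eef1a1: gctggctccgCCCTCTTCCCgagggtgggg
A run of at least 6 pyrimidines within 10 bases of the start was in 30 of 61 ribosomal protein windows (49.2%), in 14.5% of the other members and in 20% of all promoters. Ribosomal protein genes had such a run at 45.5% with a common promoter region (5 of 11) and 50% without one (25 of 50). Rps6, the target of S6 kinase, had such a run and was named by no list.

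Neighbouring pathways lay on either side of the members. Mitochondrial ribosomal proteins had a common promoter region in 13 of 78 genes (16.7%), near the 14.2% of all genes, with 8 BIBR1532 and 9 vehicle promoters. Proteasome subunits had one in 12 of 39 (30.8%), with 4 and 5. Other translation genes, among them Pabpc1, Larp1, Etf1, Ncl and Atf4, had one in 14 of 39 (35.9%), with 6 and 6, and cytosolic tRNA synthetases in 5 of 20, with 2 and 2 (Iars, Kars, Lars, Qars and Yars in the common list). The exact intervals of all 4 groups overlapped that of the members. Overlap of separate intervals cannot decide whether the groups differ, and no difference between them was tested. Of 10 neuronal markers Snap25 had a common promoter region, and none of the 6 markers each of astrocytes, oligodendrocyte lineage, microglia, and endothelium and mural cells had one. A BIBR1532 promoter region was named for 1 of the 10 neuronal markers and for no marker of the other cell types. The vehicle list named one for 2 neuronal markers, 1 astrocyte marker and 1 of the oligodendrocyte lineage. Promoter regions thus gave no check of the labelled cell type.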

How the data were processed

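The authors deposited 3 region lists from TERT CUT&Tag, which compare the combined libraries of 3 BIBR1532 samples with those of 3 vehicle samples. Bowtie2, MACS2 2.1.2, Picard, CASAVA 1.8 and mm10 are named in the submitters' processing notes without role or order; the list names point to a comparison of the pools by bdgdiff. Per the file headers, annotatePeaks.pl gave each region a class, the nearest start site and its distance in bp. The score of each region is the authors' deposited value, and the scaling between pools was not given in the sources used here. The BIBR1532 and vehicle lists were saved in a 7-bit encoding and decoded.

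Groups follow the dose in the sample titles. Chromosomes 1 to 19, X and Y were kept. Members were matched by symbol, and genes by gene ID to RefSeq (GRCm38.p6). A promoter region is one of the class promoter-TSS, touching means no base between 2 regions, and shares carry exact (Clopper-Pearson) 95% intervals for counting error only. Without replicate values no test was made and no library could be left out. Counting steps were tested on simulated lists. Of 152 members, 116 had a RefSeq promoter window (17 had several, of which the first was used). The alternatives were other distances, score and width minimums, gene sets and contigs. Some genes that the naming rule takes are not reported here. Genes were named by role, by common and condition-specific promoter regions, by the 5 highest scores in a list and by the number of regions. The members, lists and rules were chosen with earlier results of these data known. Tools were scipy 1.17.1, matplotlib 3.10.9, numpy 2.4.6, pandas 2.3.3 and Python 3.11.15.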

Additional observations from a re-analysis of the deposited data

How the results depend on the processing

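No paired analysis was possible because the 3 libraries of each condition were combined before deposit, and for the same reason no library could be left out. Of 34 alternative values, 23 stayed inside the exact 95% interval of the value they replace and 11 did not, and no test stands behind any of them. Members with a common promoter region were 34.2% with centres within 1 kb of a start, against 19.2% of all genes. They were 35.5% of the members named by any list, and 3.95% with regions of at least 500 bp. For the latter settings the share over all genes was not counted. With a score of at least 3, condition-specific promoters fell to 2.63% of members for BIBR1532 (3.78% of all genes) and 5.92% for vehicle (4.3%). The BIBR1532 share of condition-specific member regions was 61.1% with regions of at least 500 bp (11 of 18, exact 95% interval 35.7 to 82.7%). That interval holds the 43.8% over all widths, and 2557 of all 5376 regions this wide were in the BIBR1532 list. The promoter share was 80.0% of common and 33.3% of BIBR1532 member regions with centres within 1 kb, against 72.7% and 17.6% of all regions. Without the most frequent score it was 37.8% (BIBR1532) and 34.8% (vehicle), and the share over all regions was not counted for this setting. Condition-specific regions within 200 bp of a common one were 12.9% of the members', against 5.76% of all. Counting only promoters of the member's own transcript and promoter regions alone were alternatives chosen after seeing the data, and stayed inside the intervals. The direction of both condition-specific lists rests on the order of their names. Depth is unknown, so a member named by no list cannot be read as unbound.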
